A study of Mus musculus with 696 samples.

Results

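Krt5, Krt14 and Krt15 were followed through 2 consecutive skin injuries in single cells of the Lrig1 lineage. The genes were taken by name, as 3 of the 15652 genes in the deposited table. The rule uses no threshold on their values, although earlier results of these data were known when they were chosen. They belong to the 37 keratin symbols that the table holds. The readouts taken for each were its level in the summed counts of a plate, the share of cells in which it was detected, and its ratio to the other members in single cells.

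Keratins build the intermediate filaments of epithelial cells, and a filament needs a type II keratin paired with a type I keratin. Krt5 (type II) and Krt14 (type I) form the pair of the basal layer of the epidermis, where cells hold on to the basement membrane through hemidesmosomes. Krt15 is a further type I keratin of basal cells and marks stem cells of the hair follicle bulge. Cells that leave the basal layer switch to the pair Krt1 and Krt10, and cells at a wound switch on Krt6a, Krt6b, Krt16 and Krt17.

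Cells came from tail skin of female mice (strain CBA C57BL/6 mixed) with the allele Lrig1-EGFP-ires-CreERT2 and the reporter Rosa26-fl/STOP/fl-tdTomato, in which Lrig1 drives the tamoxifen-dependent recombinase, so that Lrig1+ cells of the upper hair follicle and their progeny carry tdTomato. All animals received 1 topical application of hydroxytamoxifen on the tail, at 6 to 8 weeks of age, which includes the unwounded group. The 4 groups were homeostasis before any wound (0w), 1 week post first full-thickness wound (1w pw1), 8 weeks post first wound (8w pw1), and 1 week post second, overlapping wound (1w pw2, week 9 of the labels). Each group held 2 plates of sorted tdTomato+ cells, taken from a zone that included the wound bed and follicles at a distance from it, and animals were pooled. In the text, 0w and 8w pw1 are the resting weeks, and 1w pw1 and 1w pw2 are the healing weeks. The titles also carry a letter that differs between all 4 time points, so that letter and time point cannot be told apart.

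In the order of the time points the table held 179, 168, 172 and 177 cells, or 79 to 91 cells a plate, with plate totals of 12293182 to 19760820 counts. The share of mitochondrial counts was 23.1% to 29.7% on resting plates and 18.4% to 25.2% on healing plates. The label of keratinocytes was checked against other cell types. Fibroblast markers (5 of 6 in the table) summed to 3.5 to 29.5 CPM (counts scaled by the plate total) on resting plates and 0.506 to 16.1 CPM on healing plates. Immune markers (2 of 6) stayed at or below 6.34 and 16.1 CPM, melanocyte markers (3 of 4) at or below 7.88 and 4.81 CPM, and the Merkel cell marker Krt8 (1 of 4) at or below 3.01 and 1.04 CPM. Endothelial markers (2 of 4) summed to 548 to 1812 CPM on resting plates and 94.5 to 923 CPM on healing plates, almost all of it Pecam1. Their part in the results was not tested.

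The members share coding sequence with other keratins, which bears on every count below because reads of 75 bases can fall in stretches that 2 genes hold in common. Gene models are those of GENCODE on GRCm38. Krt5 lies at chr15:101707070-101712898 on the minus strand (9 exons, transcript of 2197 bases). Krt14 lies at chr11:100203162-100207548 on the minus strand (8 exons, 1698 bases). Krt15 lies at chr11:100131758-100135928 on the same strand (8 exons, 1700 bases). Shown are 150 bases of coding exon 1 of each member beside the aligned stretch of the wound keratin it most resembles. Capitals mark the bases that differ within a pair.
Krt5, chr15:101712376-101712525, minus strand: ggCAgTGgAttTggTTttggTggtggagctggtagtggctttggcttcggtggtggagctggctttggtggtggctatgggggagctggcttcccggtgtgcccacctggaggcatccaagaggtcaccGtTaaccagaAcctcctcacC
Krt6a, chr15:101693844-101693993, minus strand: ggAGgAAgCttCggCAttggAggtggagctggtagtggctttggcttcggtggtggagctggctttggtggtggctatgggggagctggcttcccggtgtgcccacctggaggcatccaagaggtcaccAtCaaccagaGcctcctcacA
Krt14, chr11:100207009-100207158, minus strand: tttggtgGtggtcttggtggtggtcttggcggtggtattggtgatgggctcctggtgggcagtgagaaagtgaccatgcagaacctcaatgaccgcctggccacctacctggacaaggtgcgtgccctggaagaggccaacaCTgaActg
Krt16, chr11:100248468-100248617, minus strand: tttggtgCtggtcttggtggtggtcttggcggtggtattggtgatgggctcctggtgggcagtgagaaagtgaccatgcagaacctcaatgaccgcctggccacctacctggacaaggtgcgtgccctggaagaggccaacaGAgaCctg
Krt15, chr11:100135398-100135547, minus strand: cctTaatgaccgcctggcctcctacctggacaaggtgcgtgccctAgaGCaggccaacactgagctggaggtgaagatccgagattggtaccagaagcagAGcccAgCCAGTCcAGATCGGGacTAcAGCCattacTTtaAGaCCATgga
Krt17, chr11:100260547-100260696, minus strand: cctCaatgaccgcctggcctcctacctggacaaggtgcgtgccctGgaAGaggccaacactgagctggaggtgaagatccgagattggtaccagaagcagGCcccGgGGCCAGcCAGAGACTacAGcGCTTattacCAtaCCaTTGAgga
Krt14 and Krt16 are identical at 146 of these 150 bases, with an unbroken run of 134. Krt5 and Krt6a are identical at 137 bases, with a run of 108, and Krt15 and Krt17 at 115 bases, with a run of 50. Over whole transcripts, 486 of the 1668 31-base words of Krt14 (29.1%) also occur in another gene, mostly in Krt16 (303) and Krt17 (180). The share was 12.8% for Krt5, mostly Krt6a (205 words), and 3.89% for Krt15. Where a read fits several genes, Salmon divides it, which leaves values that are not whole numbers. In cells with a count of the gene, 60% of the Krt14 values, 47.1% of the Krt5 values and 8.90% of the Krt15 values were not whole. For Krt14 the share was 34.1% and 38.8% on the 0w plates, 81.1% and 78.6% at 1w pw1, 47.6% and 51.9% at 8w pw1, and 76.7% and 80.8% at 1w pw2. For Krt5 it was 21.5% to 50% on resting plates and 55.6% to 78.0% on healing plates, and for Krt15 these ranges overlapped. For Krt14 and Krt5, more of the positive cells thus held a value that was not whole on every healing plate than on any resting plate. The share of divided reads was not measured, and a cell with more reads has more chances of such a value. How far Krt14 and Krt5 levels depend on the division is therefore uncertain.

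To ask how the level of each gene moved between time points, counts were summed over a plate. In such sums, fewer cells that express a gene and less RNA per cell cannot be told apart. Krt14 was at 903 and 999 TMM-scaled CPM on the 0w plates, 4590 and 3587 at 1w pw1, 2104 and 3423 at 8w pw1, and 3168 and 3328 at 1w pw2. Every plate after the first wound exceeded both plates before it, including those of the healed skin at 8w pw1. Krt5 was at 425 and 238 CPM at 0w, 300.1 and 209 at 1w pw1, 724 and 612 at 8w pw1, and 503 and 279 at 1w pw2. Its 8w pw1 plates were the highest, above all other plates, whereas the other 3 time points overlapped. A single cell held 38.7% of the Krt5 counts of the second 8w pw1 plate, against 9.39% on the first. On every other plate the largest such share was 27.4% or less. The level of the second 8w pw1 plate without that cell was not computed, so its place above the other time points may rest on that cell. Krt15 was at 686 and 607 CPM at 0w, 403 and 150 at 1w pw1, 489 and 564 at 8w pw1, and 589 and 776 at 1w pw2. It was lowest on the 1w pw1 plates and, unlike after the first wound, not lower after the second.

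**Figure D1:**
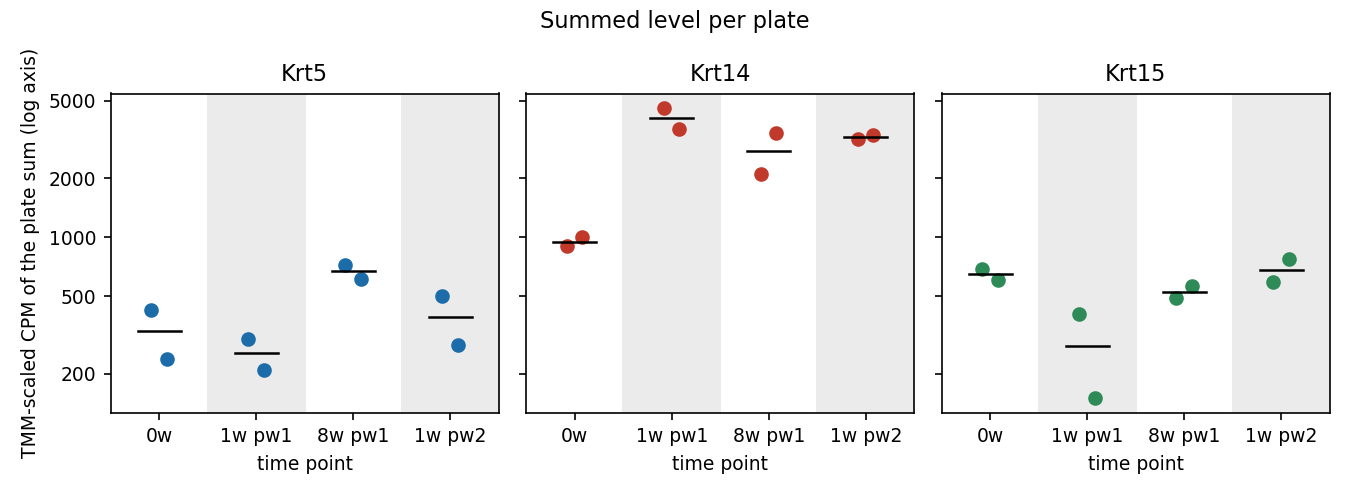
Levels of Krt5, Krt14 and Krt15 in the summed counts of each plate (TMM-scaled CPM, log axis) at the 4 time points. Points are plates, horizontal lines are means of 2 plates and grey bands mark the healing weeks. All 6 Krt14 plates after the first wound lie above both 0w plates, while Krt5 and Krt15 plates of resting and healing weeks overlap.

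Per kilobase of transcript, which allows levels to be compared between genes, Krt14 was the most abundant member at every time point. Its level was 560 ± 40 CPM per kb at 0w (SD, n = 2 plates, as for the values that follow), and 2408 ± 418, 1627 ± 549 and 1913 ± 67 at the later weeks in order. Krt15 was at 380 ± 33, 162 ± 105, 310 ± 31 and 402 ± 78 CPM per kb. Krt5 was at 151 ± 60, 116 ± 29, 304 ± 36 and 178 ± 72 CPM per kb. Krt15 exceeded Krt5 on both 0w plates and on both 1w pw2 plates, and the ranges of these genes overlapped at 1w pw1 and 8w pw1.

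None of the 3 members passed the test in any of 7 comparisons by edgeR's quasi-likelihood test, where a call needed a fold above 2 and an adjusted p (Benjamini-Hochberg, all genes) below 0.05. The share of all 13853 genes tested that did so was 0.527% from 0w to 1w pw1, 0% from 0w to 8w pw1, 0.267% from 0w to 1w pw2, 0% from 1w pw1 to 1w pw2, 0.00722% from 8w pw1 to 1w pw2, 1.8% for healing against resting weeks, and 0% for the difference between the healings. This last comparison sets the response to the second wound, from 8w pw1, against that to the first, from 0w. In the 3 comparisons with no call, 896, 832 and 740 genes had an unadjusted p below 0.05, and DESeq2 called 163, 42 and 78.

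Krt14 came closest. Its log2 fold change from 0w was 2.10 (SE 0.43) at 1w pw1, with an edgeR adjusted p of 0.0721. The 8w pw1 plates differed from 0w by 1.54 (SE 0.43, adjusted p = 0.63), and those of 1w pw2 by 1.77 (SE 0.43, adjusted p = 0.159). Over healing against resting weeks it was 1.17 (SE 0.30, adjusted p = 0.0955), although 1 of the 4 resting plates reached the healing range. The call turned on the model. With the replicate number as a block, edgeR called Krt14 at 1w pw1 (2.12, adjusted p = 0.0225) and for healing against resting weeks (1.18, adjusted p = 0.0325), and gave an adjusted p of 0.0591 at 1w pw2. DESeq2 called it in these 3 comparisons, with adjusted p of 0.00201, 0.0245 and 0.0202. The block called 1.03% of all genes higher at 1w pw1 and 1.71% for healing against resting weeks, and DESeq2 2.26%, 2.89% and 2.33% in that order of the 3. From 1w pw1 to 1w pw2 it differed by -0.33 (adjusted p = 0.901) and from 8w pw1 to 1w pw2 by 0.23 (adjusted p = 0.914), which turned to -0.14 when every cell was scaled equally. The difference between the healings was -1.87 (SE 0.60), with an unadjusted p of 0.0104 and an adjusted p of 0.891.

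Krt15 differed by -1.23 (SE 0.52) from 0w to 1w pw1, with an edgeR adjusted p of 0.393, and by 0.08 (SE 0.51, adjusted p = 0.975) from 0w to 1w pw2. Without the first 1w pw1 plate the first value was -2.13, and without the second it was -0.68. Both 1w pw1 plates were below both 0w plates, and both 1w pw2 plates were above both 8w pw1 plates. The difference between the healings was 1.60 (SE 0.73), with an adjusted p of 0.929 (2.52 and 1.08 without the first and the second 1w pw1 plate), so that opposite directions after the first and the second wound were not established. Between both healing weeks Krt15 differed by 1.31 (SE 0.52, adjusted p = 0.781). Krt5 at 1w pw1 differed from 0w by -0.38 (SE 0.49, adjusted p = 0.845). For 8w pw1 the value was 1.01 (SE 0.49, adjusted p = 0.775), and for 1w pw2 it was 0.24 (SE 0.49, adjusted p = 0.896). Over healing against resting weeks Krt5 was at -0.58 (adjusted p = 0.496) and Krt15 at -0.43 (adjusted p = 0.661). With 1 plate left out the Krt5 value ran from -0.81 without the first 1w pw2 plate to -0.34 without the first 0w plate, and the Krt15 value from -0.87 without the first to -0.14 without the second 1w pw1 plate. A total within these spreads can hide a change in how cells share the counts, and the next readout looked at cells.

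The share of positive cells separated the healing from the resting weeks. To compare cells of unequal depth, each was thinned to 20000 counts, which left out 12, 10, 18 and 11 shallower cells in the order of the time points, and a cell with at least 1 count was positive. Krt15 was detected in 73.3% and 65.4% of the cells at 0w, 18.8% and 16.7% at 1w pw1, 53.1% and 60.3% at 8w pw1, and 28.9% and 22.9% at 1w pw2. Krt5 was detected in 75.6% and 67.9%, then 37.5% and 35.9%, then 67.9% and 64.4%, and 43.4% and 33.7%. Krt14 was detected in 88.4% and 91.4%, then 80.0% and 79.5%, then 96.3% and 93.2%, and 84.3% and 74.7%. For each gene, no healing plate reached a resting plate.

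Krt15 fell by 41.2 percentage points, from 63.0% ± 8.50 on the 4 resting plates to 21.8% ± 5.40 (SD) on the 4 healing plates. Krt5 fell by 31.3 points (68.9% ± 4.73 to 37.6% ± 4.13). Krt14 fell by 12.7 points (92.3% ± 3.32 to 79.6% ± 3.94). Each gave p = 0.0286 in a two-sided exact permutation test over plates, the smallest that 4 plates against 4 allow, and an adjusted p of 0.0321 over the 9 cell measures tested. With plates permuted only within replicate numbers, which keeps the pairing, these shares and the 5 other measures that separated the weeks gave an exact permutation p of 0.0556 (adjusted p = 0.0625), the smallest that its 36 splits allow, and did not pass. The test over the 4 time points, an exact permutation test that does not keep the pairing, gave p = 0.00952 for Krt15 (adjusted p = 0.0286), the smallest it allows. In that test Krt5 and Krt14 did not pass, with adjusted p of 0.0667 for both. For Krt15 the order was 0w, 8w pw1, 1w pw2 and 1w pw1, and the ranges of neighbouring time points did not overlap. For Krt5 the same order was found, with 0w and 8w pw1 touching at 67.9% and the ranges of both healing weeks overlapping.

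**Figure D2:**
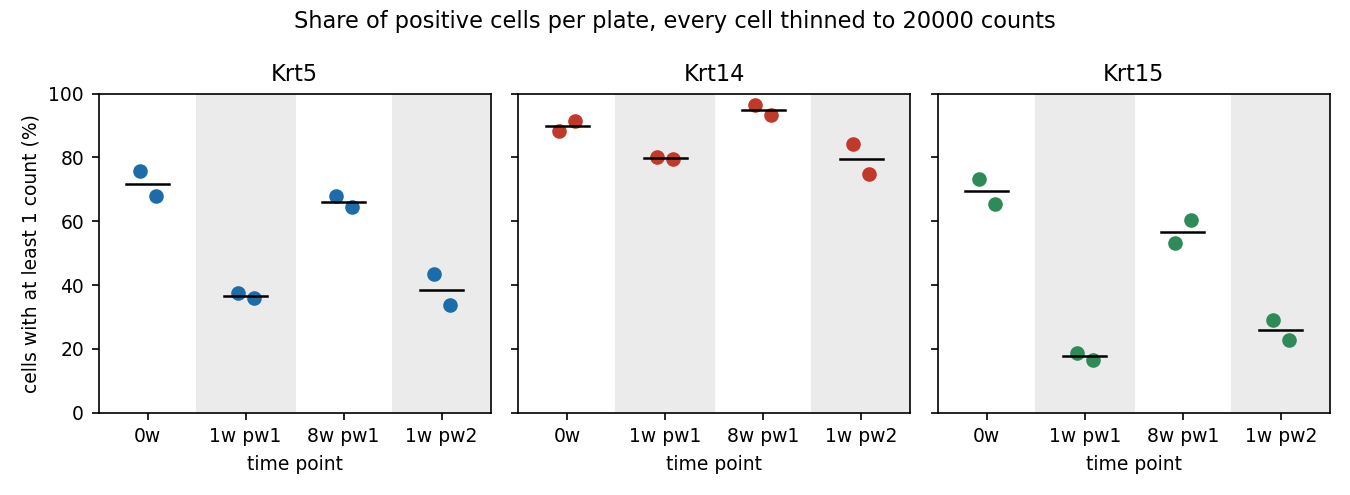
Share of cells (%) with at least 1 count of Krt5, Krt14 or Krt15 after thinning each cell to 20000 counts, by time point. Points are plates, horizontal lines are means of 2 plates and grey bands mark the healing weeks. Krt15 falls from 53.1% or more on every resting plate to 28.9% or less on every healing plate, and Krt14 stays at 74.7% or more throughout.

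Without thinning the healing plates again lay below the resting plates for each gene. Krt15 was detected in 73 of 88 cells of the first 0w plate, or 83.0% (exact 95% binomial interval 73.4% to 90.1%), and in 16 of 79 cells of the second 1w pw1 plate, or 20.3% (12% to 30.8%). Such intervals cover only the sampling of cells on a plate, and not the spread between plates. As a guide to background, a cluster of 20 sebaceous gland-like cells (16 of them of resting weeks, median 274701 counts, not thinned, against plate medians of 64980 to 256588) held Krt15 in 0 cells, which allows a share of up to 15%, and Krt5 in 2 cells, while Krt14 was found in all 20. That limit is an upper bound set by the small number of cells and not a measured background. The thinned Krt15 shares of the 1w pw1 plates (18.8% and 16.7%) lay close to that limit and are not read as apart from it. Before thinning, the cells with Krt15 on these plates held it at a median of 1657 and 132 CPM.

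The median level per cell followed the shares for Krt5 and Krt15 and not for Krt14. In log2(CPM + 1), the median of Krt5 was 8.30 and 7.26 at 0w and 8.75 and 7.89 at 8w pw1, and 0 on all 4 healing plates. For Krt15 it was 8.70 and 7.93 at 0w, 5.57 and 6.29 at 8w pw1, and again 0 on all healing plates. Since fewer than 50% of the cells of every healing plate held either gene, these medians had to be 0 and restate the shares (exact permutation p = 0.0286, adjusted p = 0.0321). Healing minus resting weeks came to -8.05 for Krt5 and -7.12 for Krt15 by the median, and to -2.87 and -3.79 by the mean over cells. The median of Krt14 was 9.36 and 8.93 at 0w, 10.99 and 10.22 at 1w pw1, 10.56 and 10.78 at 8w pw1, and 10.35 and 9.97 at 1w pw2. It was lowest on both 0w plates, and healing minus resting weeks came to 0.48 with an exact permutation p of 0.371. When the mean over cells replaced the median, that difference turned to -0.75 (adjusted p = 0.229), so no direction is given for it.

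Positive cells were then looked at alone, a description made after the values had been seen and with no test. In cells with Krt14, its median was 698 and 512 CPM at 0w, 2763 and 1375 at 1w pw1, 1576 and 2304 at 8w pw1, and 2001 and 2174 at 1w pw2. Fewer cells held Krt14 at the healing weeks, yet its level in those that did was above 0w on every plate. Krt15 in positive cells spanned 132 to 1657 CPM at the healing weeks against 432 to 741 CPM at the resting weeks. Its counts were concentrated in few cells. A single cell held 60% of the Krt15 counts of the second 1w pw1 plate, and 3 cells held more than 50% of those of each other healing plate. At 0w, 10 and 4 cells were needed, and at 8w pw1 6 and 2. A single cell held 29.4% on the second 0w plate and 41.7% on the second 8w pw1 plate. The summed Krt15 levels thus rested on few cells on every healing plate and on the second plates of 0w and 8w pw1. The shares of positive cells did not.

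The balance between members within a cell shifted with the week. The log2 ratio of Krt14 to Krt5 was taken as the median over cells with at least 20 counts of the pair, with 0.5 added to each count. Counts were not divided by transcript length here, and the longer transcript is that of Krt5. The ratio was 1.02 and 1.66 at 0w, 6.54 and 6.60 at 1w pw1, 1.83 and 2.70 at 8w pw1, and 5.25 and 6.36 at 1w pw2. Healing plates exceeded resting plates by 4.39 on this scale (means 6.19 ± 0.64 and 1.80 ± 0.69, SD over 4 plates, exact permutation p = 0.0286, adjusted p = 0.0321). Without thinning, Krt5 was detected in 39.6% to 48.1% of the cells of the healing plates. In cells with none, the 0.5 added and the Krt14 count set the ratio. The value of 4.39 is thus not an exact difference and partly restates the shares of Krt5-positive cells. Counts of the type I partner thus outnumbered those of Krt5 in all weeks, and by more at the healing weeks. The size of the difference depended on the summary, at 2.56 with the mean over cells, 3.85 with 1 added to each count and 5.23 over cells with at least 100 counts of the pair.

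The log2 ratio of Krt15 to Krt14 was -0.87 and -1.19 at 0w, -9.05 and -9.31 at 1w pw1, -5.43 and -5.12 at 8w pw1, and -7.97 and -8.26 at 1w pw2. Healing minus resting plates came to -5.50 (exact permutation p = 0.0286, adjusted p = 0.0321). The value was -3.84 with the mean over cells, -4.68 with 1 added and -6.32 over cells with at least 100 counts. Without thinning, Krt15 was detected in 20.3% to 31.4% of the cells of the healing plates. In cells with none, the value added to each count and the Krt14 count set the ratio. The value of -5.50 is thus not an exact difference and partly restates the shares of Krt15-positive cells. Without the second 1w pw1 plate the difference was -5.28 with an adjusted p of 0.0643. The 4 time points did not overlap in this ratio. The 8w pw1 plates lay between 0w and the healing weeks. The ratio in the healed skin thus remained apart from that before the wound on both plates. Its distance from 1w pw1 is not sized, since only 21.3% and 20.3% of the 1w pw1 cells held Krt15. With 2 plates against 2, an exact permutation test of 0w against 8w pw1 cannot give a p below 0.333, and none was run. Over all 4 time points both ratios gave an exact permutation p of 0.00952 (adjusted p = 0.0286), in a test that does not keep the pairing by replicate number.

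**Figure D3:**
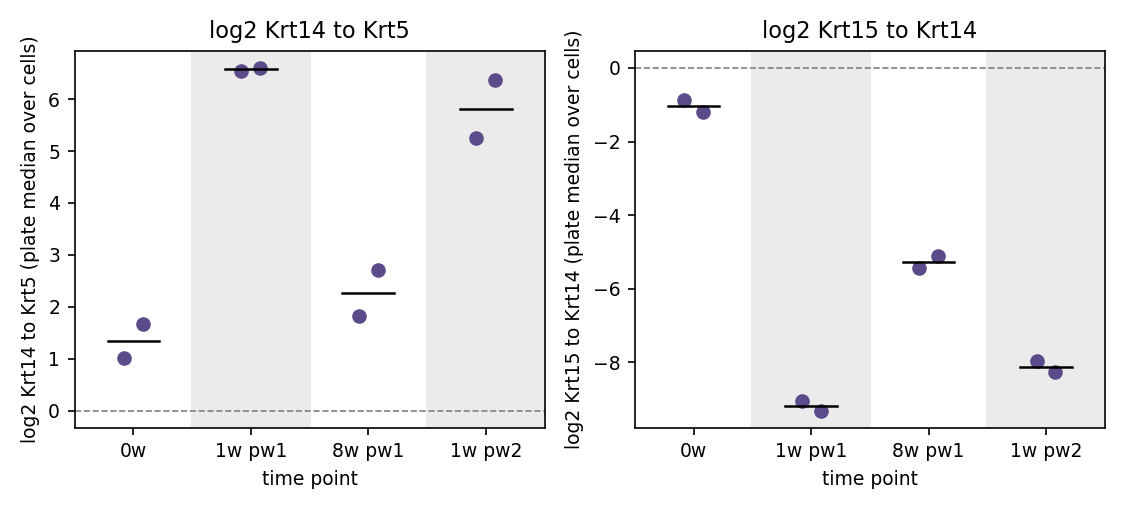
Log2 ratios of Krt14 to Krt5 and of Krt15 to Krt14 in single cells, as the median over the cells of each plate, by time point. The dashed line marks equal counts. Points are plates, horizontal lines are means of 2 plates and grey bands mark the healing weeks. Krt14 to Krt5 lies at 2.70 or less on resting plates and at 5.25 or more on healing plates, and the Krt15 to Krt14 ratio of 8w pw1 lies between 0w and the healing weeks.

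Set against all keratins, the members took a smaller share at the healing weeks. Their own summed level was higher on every healing plate than on both 0w plates and overlapped that of 8w pw1. It was 2014 and 1844 CPM at 0w, 5293 and 3945 CPM at 1w pw1, 3317 and 4599 CPM at 8w pw1, and 4260 and 4383 CPM at 1w pw2. Per plate, they made up 37.0% and 31.9% of the summed counts of the 37 keratins at 0w, 9.70% and 6.80% at 1w pw1, 29.5% and 30.5% at 8w pw1, and 17.3% and 9.18% at 1w pw2. The difference of healing from resting weeks was -21.5 percentage points (exact permutation p = 0.0286, adjusted p = 0.0321), and no healing plate reached a resting one. The sum of the marker genes of differentiated cells (6 of 6 in the table) was 2874 to 6145 CPM on resting and 17772 to 35959 CPM on healing plates. That of wound-activated cells (6 of 6) was 54.8 to 888 against 2629 to 23771 CPM. That of basal cells (8 of 8) was 955 to 2279 against 685 to 1279 CPM, with overlap. Without overlap, bulge markers (8 of 8) summed to 249 to 359 against 127 to 244 CPM. Sebaceous gland markers (8 of 8) summed to 1045 to 7715 against 508 to 983 CPM, also without overlap. The sums of junctional zone and upper follicle duct markers overlapped. Their part in the shares of Krt5 and Krt15 was not tested.

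Because Krt14, Krt5 and Krt15 share sequence with wound keratins, cells without any count of the closest relative were set apart, after the values had been seen and with no test. In cells without Krt16, 93.8% and 94.0% held Krt14 at 0w, 76.2% and 84.2% at 1w pw1, 96.8% and 90.9% at 8w pw1, and 83.7% and 71.7% at 1w pw2. The median level of Krt14 in these cells was 658 and 486 CPM at 0w, 637 and 422 at 1w pw1, 1320 and 1042 at 8w pw1, and 909 and 229 at 1w pw2. These were 80 and 83 cells at 0w, 42 and 38 at 1w pw1, 62 and 66 at 8w pw1, and 43 and 53 at 1w pw2. The selection removed more cells of the healing plates than of the 0w plates, and Krt16 itself marks wound-activated cells, so these levels cannot show whether shared reads raised Krt14. In cells without Krt6a, Krt5 was found in 54.2% to 74.1% on resting and 12.5% to 28.0% on healing plates. These were 48 to 70 cells a resting plate and 25 to 44 a healing plate. In cells without Krt17, Krt15 was found in 51.2% to 89.7% on resting and 10.5% to 37.5% on healing plates. Here 37 to 43 cells a resting plate and 16 to 19 a healing plate remained. Both selections removed a larger part of the cells on every healing plate than on any resting plate. Krt6a also marks wound-activated cells, so these shares cannot be told apart from the selection.

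Cells were next sorted by which members they held, after thinning to 20000 counts, as a description chosen after the values had been seen. Of 645 cells, 223 held all 3 genes, 199 held Krt14 alone, 96 held Krt5 and Krt14 without Krt15, and 62 held none. In the order of the time points, cells with all 3 made up 61.1%, 9.49%, 46.8% and 20.5%. Cells with Krt14 alone made up 17.4%, 44.3%, 22.7% and 39.2%. Cells with none made up 4.79%, 13.9%, 2.60% and 16.9%. The state with all 3 genes prevailed at the resting weeks and Krt14 alone at the healing weeks. Cells with Krt5 and Krt14 but no Krt15 made up 5.99% at 0w and then 21.5%, 17.5% and 15.1%, a difference that was not tested. By plate the share was 5.81% and 6.17% at 0w, 22.5% and 20.5% at 1w pw1, 17.3% and 17.8% at 8w pw1, and 18.1% and 12% at 1w pw2, so that both 0w plates were lowest and both 1w pw1 plates highest.

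**Figure D4:**
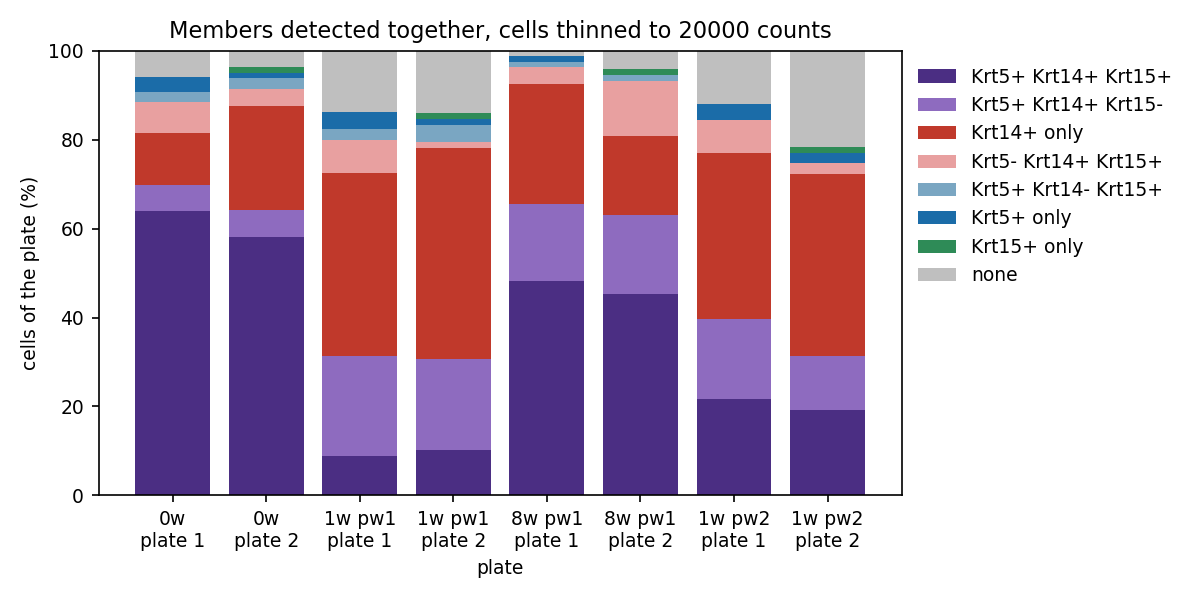
Share of the cells of each plate (%) holding each combination of Krt5, Krt14 and Krt15 after thinning to 20000 counts, as stacked bars. Cells with all 3 genes make up 58.0% and 64.0% on the 0w plates, 8.75% and 10.3% at 1w pw1, 45.2% and 48.1% at 8w pw1, and 19.3% and 21.7% at 1w pw2.

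The other genes of these cells differed between combinations. Among cells with all 3 members, Col17a1, a collagen of the hemidesmosome, was detected in 98.3% at the resting weeks and 79.6% at the healing weeks. Among cells with Krt14 alone, it was detected in 50% of 64 resting cells and 31.1% of 135 healing cells. Krt10, a keratin of differentiated cells, was found in 81.2% of these resting cells and 95.6% of the healing cells, against 48.3% and 69.4% of the cells with all 3 members. Its partner Krt1 was found in 20.3% and 63.7% of the cells with Krt14 alone, against 12.1% and 46.9%. Krt79, a keratin of the upper follicle duct, was found in 95.3% and 76.3%, against 32.8% and 57.1%. In both phases each of these keratins was found in a larger share of the cells with Krt14 alone than of the cells with all 3, and Krt1 was not detected in most of the resting cells. These shares are from all counts, and the cells with Krt14 alone were deeper (median 169036 against 109787 counts at rest, 156566 against 141063 at healing). After thinning to 20000 counts, a setting chosen after seeing the data, Krt10 was found in 76.6% and 91.9% of the cells with Krt14 alone, at rest and at healing, against 37.9% and 57.1% of those with all 3. For Krt1 the thinned shares were 18.8% and 56.3% against 9.77% and 24.5%, and for Krt79 93.8% and 74.8% against 21.8% and 42.9%. For Col17a1 they were 25.0% and 17.8% with Krt14 alone, against 93.7% and 55.1% with all 3. Healing cells with Krt5 and Krt14 but no Krt15 (59 cells) had a median Krt14 of 7104 CPM, and 98.3% of them held Krt6a and 76.3% held Krt16, both keratins of wounded epidermis. The 37 resting cells of that state had a median Krt14 of 2693 CPM, and 56.8% of them held Krt6a and 40.5% held Krt16. Thinned, the shares were 94.9% and 67.8% for the healing cells, and 56.8% and 24.3% for the resting cells. Both keratins were also found in other healing cells. Thinned, healing cells with all 3 members held Krt6a in 65.3% and Krt16 in 20.4%. For healing cells with Krt14 alone the thinned shares were 43.0% and 37.0%. Krt5 shares sequence with Krt6a, and Krt14 with Krt16, and the part of divided reads in these states was not tested. Among the 50 healing cells with none of the members, the median of Krt10 was 23103 CPM and that of Krt1 6990 CPM.

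Within plates, the members did not rise and fall together to the same degree. Across the cells of a plate, the Spearman correlation of Krt5 with Krt15 averaged 0.51 over the 8 plates (0.33 to 0.66) and that of Krt5 with Krt14, its filament partner, 0.31 (0.17 to 0.47). That of Krt14 with Krt15 averaged 0.00 (-0.29 to 0.28). These are descriptions over 79 to 91 cells that share a plate and differ in depth. Ranked over 7663 genes by the same mean correlation, with the members themselves left out, Krt5 was most like S100a6 (0.70), Ftl1 (0.62), Col17a1 (0.57), Fth1 (0.56) and Lamb3 (0.54), of which Col17a1 and the laminin chain Lamb3 belong to the basement membrane contact. It was least like Sdr16c6 (-0.63), Dsc1 (-0.56) and Acer1 (-0.51). Outside the members, Krt15 was most like Ftl1 (0.50), Crip1 (0.46), Col17a1 (0.45), Slc6a6 (0.43) and S100a6 (0.43), and least like Sdr16c6 (-0.46), Fabp5 (-0.42) and Dsc1 (-0.41). The highest correlation of Krt14 was below those of the other members. It was most like Actb (0.47), Gapdh (0.44), Pfn1 (0.43), Anxa2 (0.43) and Tagln2 (0.42), the first of them an actin and the second a glycolytic enzyme. It was least like mt-Co1 (-0.28), Tpt1 (-0.26) and Agpat4 (-0.26).

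To see where in the lineage each member was held, the 696 cells were grouped into 13 clusters without using the 3 genes. In log2(CPM + 1), Krt5 averaged 11.18 ± 1.77 (SD over cells) and 9.34 ± 1.62 in the 2 basal-like clusters (24 cells, 23 of them of resting weeks, and 78 cells, all of resting weeks), 9.83 ± 1.60 in an unnamed cluster led by Pdlim3, and 0.30 ± 1.03 in the sebaceous gland-like cluster. Krt14 averaged 13.07 ± 1.47 and 9.70 ± 2.59 in the basal-like clusters, 12.43 ± 1.88 in the wound-activated-like cluster (60 cells, all of healing weeks), 10.46 ± 3.15 in the upper follicle duct-like cluster (91 cells) and 9.09 ± 1.12 in the sebaceous gland-like cluster. Krt14 was therefore present at high levels in clusters that held little Krt5. Krt15 averaged 10.58 ± 4.35 and 10.32 ± 2.03 in unnamed clusters led by Pdlim3 (35 cells) and by Lgr5 and Sfrp1 (61 cells), against 0.65 ± 2.04 in the wound-activated-like cluster, where Krt5 averaged 7.45 ± 3.69. Against the other cells, 3 bulge markers were raised in the cluster led by Pdlim3. In the cluster led by Lgr5, 4 bulge markers and 6 basal markers were raised. The larger basal-like cluster held Krt15 at 8.96 ± 2.71 and the smaller at 3.85 ± 3.93. In the cycling-like cluster (53 cells) Krt5 was at 6.93 ± 2.45, Krt14 at 9.57 ± 2.14 and Krt15 at 5.30 ± 2.89. Besides 5 cycling markers, 4 sebaceous gland markers were raised in this cluster. Cluster membership took up 62.1% of the variance over cells of Krt5, 58.6% of that of Krt15 and 24.2% of that of Krt14, so that Krt14 varied mostly within clusters.

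**Figure D5:**
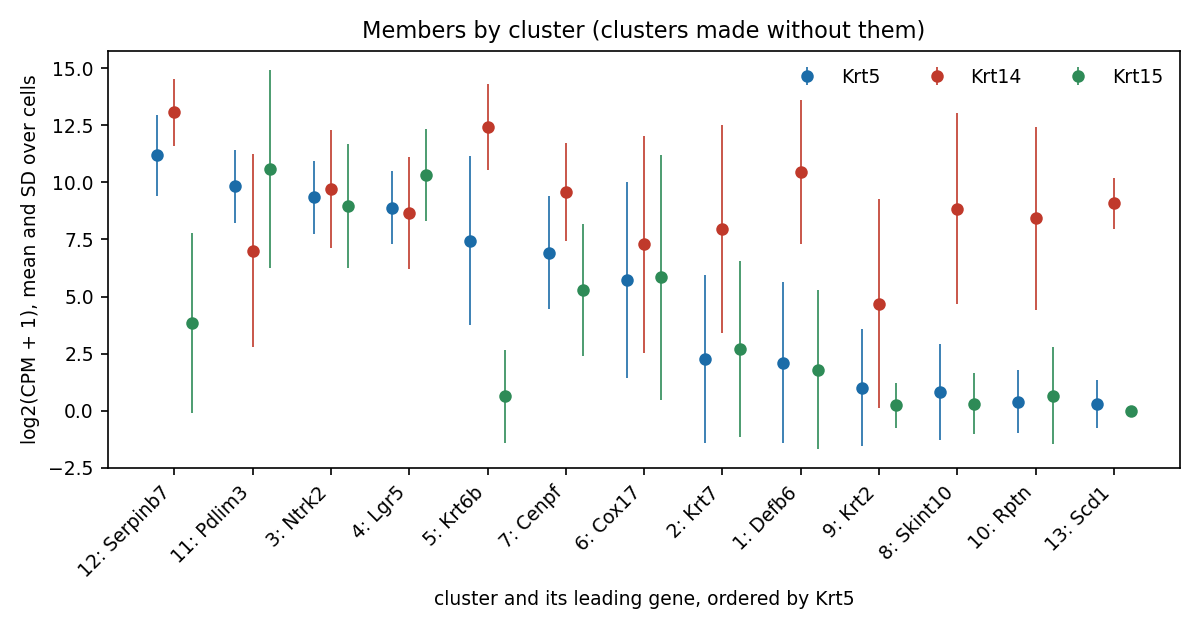
Mean level of Krt5, Krt14 and Krt15 in log2(CPM + 1) in each of 13 clusters made without these genes, ordered by Krt5. Points are means and bars are SDs over cells. Krt14 stays above 4 in every cluster, while Krt5 and Krt15 approach 0 in the differentiated-like and sebaceous gland-like clusters.

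The 2 differentiated-like clusters (50 and 47 cells) held Krt5 in 16.0% and 17.0% of their cells, Krt15 in 6.00% and 6.38%, and Krt14 in 86.0% and 61.7%. Of the 193 cells that held Krt14 alone before thinning, 49 were upper follicle duct-like and 55 differentiated-like, and 18 of the 20 sebaceous gland-like cells were among them. Within a single class, the upper follicle duct-like cells (7 to 18 a plate), Krt15 averaged 3.16 ± 1.60 on resting and 1.00 ± 0.49 on healing plates in log2(CPM + 1). The groups did not overlap (exact permutation p = 0.0286), but the adjusted p over the 3 members was 0.0857. In this class the healing plates differed from the resting plates by 0.56 in Krt5 and by -0.83 in Krt14, with exact permutation p of 0.514 and 0.429.

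Some other keratins were called by edgeR in the same sums in which, without the replicate block, it called no member. Of a list of 24 further keratins, 20 were tested, and by edgeR 5 were called higher at 1w pw1 than at 0w and none lower, where 0.404% of all genes were called higher. The other 15 were not called. The 5 called were the differentiation keratins Krt10 (log2 fold change 4.16) and Krt2 (10.13) and the wound keratins Krt6a (6.49), Krt16 (10.80) and Krt6b. Krt6b had 0 counts at 0w and was at least 36695-fold higher at 1w pw1 and at least 2585-fold higher at 1w pw2, against a floor of 3 counts over both 0w plates. Krt8 went the other way, from 41 counts at 0w to 0 at 1w pw1, and was not called by edgeR. At 1w pw2, where 0.238% of all genes were called higher than at 0w, Krt2 (9.95), Krt6a (4.53), Krt16 (9.12) and Krt6b were among them, and Krt6b was the single gene called from 8w pw1 to 1w pw2. At 8w pw1 none was called against 0w. Against 0w, the median log2 fold change of the list was 2.999, 1.30 and 3.65 in the order of the weeks, against -0.036, 0.068 and 0.053 over all genes tested. With the 3 genes at 0 counts at 0w set to their bounds, the median at 8w pw1 was 1.05. DESeq2 tested 21 of the list and called 10 higher and 1 lower, Krt8, at 1w pw1, 3 higher at 8w pw1 and 13 higher at 1w pw2, where it called 2.26%, 0.607% and 2.33% of all genes higher.

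For healing against resting weeks, 9 of the 20 keratins were called higher, against 1.03% of all genes tested. Besides Krt6a (4.12), Krt6b, Krt16 (7.43), Krt2 (6.75) and Krt10 (3.20), these were Krt1 (3.99), the partner of Krt10, and Krt7 (3.92), Krt24 (3.41) and Krt84. Since Krt6a and Krt6b share words with Krt5, and Krt16 with Krt14, the division of reads between them is uncertain.

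Of 12 basal layer genes, most of them parts of the contact with the basement membrane, besides the transcription factor Trp63 and the receptor Egfr, none was called in these comparisons by edgeR. Their median log2 fold change was -0.85 at 1w pw1, with 2 of 12 above 0, 0.53 at 8w pw1, with 11 of 12 above 0, and -0.80 at 1w pw2, with 4 of 12 above 0. The lowest value at 1w pw1 was that of Itga3, an integrin chain (-3.69, adjusted p = 0.171). At 8w pw1 the values ran from -0.12 for Dst, a plakin of the hemidesmosome, to 1.64 for Itga3. At 1w pw2 the lowest was -1.72 for Dst. For healing against resting weeks the median was -0.88, with 1 of 12 above 0, and the lowest value was -3.10 for Itga3 (adjusted p = 0.0559). The calls turned on the model here too. Itga3 was called lower at 1w pw1 with the replicate block (-3.84, edgeR adjusted p = 0.0287) and by DESeq2 (-3.70, adjusted p = 0.00204). For healing against resting weeks, the block called Itga3, Col17a1, Dst and Lamb3 lower, and DESeq2 Itga3 and Dst. These fits also called more genes in general. For healing against resting weeks, 1.6% of all genes were called lower under the block and 3.7% by DESeq2, against 0.765% by edgeR without the block, and at 1w pw1 0.671% under the block and 2.42% by DESeq2.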

How the data were processed

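Single-cell RNA was measured by Smart-seq2 (full-length reads, no molecular identifiers) in 696 cells sorted into 8 plates, 2 for each of 4 time points. The authors deposited estimated counts for each cell and gene, and the submitters' processing notes name Salmon 0.13.1 and GRCm38. These expected counts were neither normalised nor batch corrected, 96.6% of values were whole numbers (tolerance 1e-06), and 0 columns had no sample. Cells with few genes had been removed before deposit, and the lowest held 1001 genes. Plate totals are given with the report.

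Counts were summed per plate, rounded and tested with edgeR 4.0.16 in R 4.3.3 (quasi-likelihood test, TMM scaling, default filter on low counts, 13853 genes, time point as the only term). Calls needed a fold above 2 and an adjusted p (Benjamini-Hochberg) below 0.05. The biological coefficient of variation was 0.61 with 4 residual degrees of freedom. On data simulated for 1w pw1 against 0w over 13853 genes, 59% of 8-fold and 100% of 32-fold changes were recovered, with 2 false calls. Replicate plates correlated at 0.852 to 0.917 across genes and were kept apart. The labels give each time point replicates 1 and 2, and plates with the same number deviated together (correlation 0.121 to 0.213 in 6 pairings of time points), so the replicate number was used as a block in an alternative fit. The labels do not say that plates came from separate animals beyond the pools, so p-values measure the spread between plates.

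Shares of positive cells, levels, ratios and the keratin share were computed per plate in Python (numpy 2.4.6, scipy 1.17.1) and compared by two-sided exact permutation over plates (70 splits for 4 against 4, 2520 arrangements over 4 time points), adjusted over 9 measures. Clusters came from 2000 variable genes without the members, 20 components, 15 neighbours and a Leiden resolution of 1 (leidenalg 0.10.2), and no doublet caller was run. Names rest on at least 3 detected markers, but not every cluster with that many was named. Named genes are the members, the 5 most and 3 least correlated genes for each (detected in at least 20% of cells), and listed keratins and basal layer genes that were called or had the highest or lowest fold, of which 1 is not reported here. Members, lists and tests were chosen with earlier results of these data known. Alternatives were DESeq2 1.42.0, the replicate block, other scaling, no filter, other thinning depths, thresholds and pseudocounts, and leaving out each plate.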

Additional observations from a re-analysis of the deposited data

How the results depend on the processing

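Of 288 alternative values for the members' fold changes, 272 kept direction and side of the threshold, as did 98 of 100 for the cell measures. With the replicate block, Krt14 passed at 1w pw1 (2.12) and for healing against resting weeks (1.18). With DESeq2 it passed there (2.09 and 1.16) and at 1w pw2 (1.73). Scaling every cell equally turned Krt15 at 8w pw1 against 0w to 0.028, Krt5 at 1w pw2 against 0w to -0.012 and Krt14 from 8w pw1 to 1w pw2 to -0.14. It also moved Krt5 at 1w pw1 against 0w to -0.79, Krt15 at 1w pw2 against 0w to 0.60 and Krt15 from 8w pw1 to 1w pw2 to 0.57. The Krt5 difference between the healings moved to -0.21. Over healing against resting weeks Krt5 moved to -0.90 and Krt15 to -0.19. Leaving out 1 plate moved Krt5 at 1w pw1 from -0.76 to 0.058, Krt5 at 1w pw2 from -0.27 to 0.69, Krt15 at 1w pw2 from -0.11 to 0.24, Krt14 from 8w pw1 to 1w pw2 from -0.071 to 0.68, and the Krt5 difference between the healings from -0.87 to 0.025. Krt15 at 1w pw1 moved from -2.13 to -0.68, its difference between the healings from 1.08 to 2.52 and its change between both healing weeks from 0.76 to 2.17, with the 1w pw1 plates at both ends. Other values that moved by over 1.5 times with 1 plate left out were Krt5 at 8w pw1 (0.62 to 1.42), between both healing weeks (0.11 to 1.01) and from 8w pw1 to 1w pw2 (-1.25 to -0.36), Krt14 between both healing weeks (-0.50 to -0.16), and Krt15 at 8w pw1 (-0.46 to -0.20) and from 8w pw1 to 1w pw2 (0.21 to 0.57). The Krt14 level by the mean over cells was -0.75. With 1 plate left out, the Krt15 to Krt14 ratio ran from -6.26 to -4.74 and passed except without the second 1w pw1 plate (-5.28). The cause was not tested.

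Counts of called genes, in the order of the comparisons above, were 73, 0, 37, 0, 1, 249 and 0. They were 236, 3, 96, 0, 8, 459 and 3 with the replicate block, and 732, 163, 693, 42, 291, 1032 and 78 with DESeq2. With only the plates compared they were 126 at 1w pw1, 12 at 1w pw2 and 0 from 8w pw1 to 1w pw2. With cells scaled equally they were 3 at 8w pw1, 0 from 8w pw1 to 1w pw2 and 2 for the difference between the healings, and with no filter 5 from 8w pw1 to 1w pw2. Leaving out 1 plate gave 8 to 93, 0 to 2, 1 to 36, 0 to 0, 0 to 7, 68 to 186 and 0 to 2. The spread of cluster means of Krt5 (10.9) was 9.05 at a resolution of 0.5, and that of Krt14 (8.38) was 5.29 at 0.5 and 9.71 at 2. With plates permuted only within replicate numbers, 8 of the 9 cell measures gave an exact permutation p of 0.0556 (adjusted p = 0.0625), the smallest that pairing allows, so none passed.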
